A study of Mus musculus with 2 samples.

Results

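Cells with very high Il22 were taken as the barcodes in which Il22, the transcript of interleukin-22, made up 5% or more of all unique molecular identifiers (UMIs, 1 per captured transcript), with no Cd3e UMI and fewer than 2 Gata3 UMIs. The members were selected on these 3 measured values, among barcodes that had 500 or more genes detected and less than 10% mitochondrial UMIs. There were 458 of them among 6466 such barcodes: 15 of 736 for WT and 443 of 5730 for cKO. They were described against the barcodes with Il22 from 0.1% to under 5% under the same limits on Cd3e and Gata3, called lower Il22 here (207 in WT and 2549 in cKO). Il22 and its copy Iltifb were left out of all totals, since Il22 chose the members. Il22 itself is given only as a description.

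The study compared innate lymphoid cells (ILCs) of the small intestine of female C57BL/6 mice, sorted by flow cytometry and run on the 10x Genomics droplet platform with version 2 of its 3′ kit. The WT library is from mice with floxed Batf (Batf fl/fl) and no Cre, and the cKO library is from Batf fl/fl mice that also carry Plzf cre. Both groups thus share the floxed alleles, and recombination in cKO is limited to cells that express Plzf, also named Zbtb16, or descend from such cells. There is 1 library per genotype, and the sources used here do not give ages, treatment, the number of mice or the sort gate. With 1 library each there is no replicate check and no test, and each difference is between 2 libraries or between barcodes of 1 library. Whether more cells or more RNA per cell account for a summed level cannot be told apart from the sum alone, so shares of barcodes are given beside the main results.

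ILC3s are tissue-resident lymphocytes without antigen receptors. In the gut they answer IL-23 and IL-1β from myeloid cells with IL-22, which acts on epithelial cells to induce antimicrobial peptides and support barrier repair. STAT3 acts below the IL-23 receptor, and BATF is an AP-1 family transcription factor that pairs with JUN proteins and cooperates with IRF4 or IRF8.

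The labelled cell type was checked first. All 12 ILC3 markers listed (Il23r, Il1r1, Kit, Il7r and others) were detected in the very high Il22 barcodes of both libraries, at summed levels of 11264 UMIs per 1000000 UMIs (CPM) in WT and 11200 CPM in cKO. The lower Il22 barcodes had 11162 and 10730 CPM. Of 15 other T cell markers found, Cd3d, Cd5, Cd6, Cd8a, Cd8b1 and Cd27 were at 0 UMIs in the 443 cKO members, and the rest were detected. At an equal depth of 1200 UMIs, Trbc1 was found in 9.80% of cKO members, Trbc2 in 7.79%, Blk in 4.27% and Cd3g in 2.01%. Their shares at lower Il22 in cKO were 12.4%, 9.89%, 3.05% and 2.97%. The T cell list summed to 292 CPM in the cKO members against 336 CPM at lower Il22 (131 and 346 CPM in WT). ILC2 markers summed to 46.1 CPM, epithelial markers to 12.8 CPM and stromal markers to 0 in the cKO members. The limits on Cd3e and Gata3 can themselves lower the T cell and ILC2 sums. Markers of ILC1s or natural killer cells, a list that holds Ncr1, Gzmb and Tbx21, summed to 484 CPM in the cKO members and 464 CPM at lower Il22. Endothelial markers summed to 107 and 104 CPM. Myeloid markers summed to 417 CPM, of which Cst3 gave 413 CPM, with Lyz2, Csf1r, Itgax, Adgre1 and C1qa at 0. Of barcodes at 5% or more Il22, 9 cKO barcodes with Cd3e and 9 with 2 or more Gata3 UMIs were left out by the gate, as was 1 WT barcode with Gata3. A doublet caller marked 1 of the 443 cKO members and none of the 15 WT members, and the libraries shared 9 kept barcode sequences, none of them a member's.

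Depth did not separate the groups in WT and differed little in cKO. Median UMIs per barcode were 3342 at very high and 3394 at lower Il22 in WT, and 3316 and 3578 in cKO. Median mitochondrial shares were 3.04% and 2.99% in WT, and 3.66% and 3.60% in cKO. The WT members together held 45720 UMIs other than Il22 and Iltifb, against 1323905 in the cKO members. One UMI therefore equals 21.9 CPM in the WT members, and the WT values below rest on few molecules. The intervals given are at 95% and cover counting error only. They treat UMIs as independent, and are too narrow where a few barcodes carry most UMIs of a gene.

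Very high Il22 was seen in 2.04% of kept WT barcodes (exact Clopper-Pearson interval 1.15 to 3.34%) and in 7.73% of kept cKO barcodes (7.05 to 8.45%). Among barcodes with Il22 at 0.1% or more and passing the gate, the shares were 6.76% (3.83 to 10.9%) of 222 in WT and 14.8% (13.6 to 16.1%) of 2992 in cKO. The share in cKO was the higher one by both denominators. The sort gate can set such shares, and its part was not tested. The cell filter also moved them: 30 WT and 177 cKO barcodes at 5% or more were left out by it, most of them with 10% or more mitochondrial UMIs (28 and 160). With all deposited barcodes kept, the shares were 3.90% and 9.62%.

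Within the members, Il22 ranged from 5.15% to 11.4% of UMIs in WT, with a median of 6.99%. In cKO it ranged from 5.02% to 34.5%, with a median of 7.20%. Barcodes at 10% or more numbered 2 in WT and 85 in cKO, and 13 cKO barcodes reached 20%. The members held 25.4% of all Il22 UMIs of kept barcodes in WT and 39.4% in cKO. The distribution had no gap at the threshold. The highest barcodes under it were at 4.75% in WT and 4.98% in cKO, and 187 cKO barcodes lay from 4% to under 5% beside 113 from 5% to under 6%. Gadd45g was at 431 CPM in the former and 736 CPM in the latter, Ctla4 at 102 and 177 CPM, and Batf at 190 and 222 CPM. Il17f, at 102 and 48.2 CPM, and Palld, at 82.2 and 34.8 CPM, were lower just above the threshold. In WT, with 8 barcodes just below and 6 just above it, Batf was at 614 and 532 CPM and Ctla4 at 425 and 81.9 CPM. Il22 was also seen in barcodes of other cell types, and whether it came from free RNA, doublets or expression was not tested. Of 110 cKO barcodes with 2 or more endothelial UMIs (Cdh5, Kdr, Lyve1 and Cldn5), 33 had an Il22 UMI, 16 reached 0.1% and 1 reached 5%, at a median depth of 2422 UMIs. Of 954 cKO barcodes with Gata3 and ILC2 UMIs, 84 reached 0.1% and none reached 5%.

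**Figure D1:**
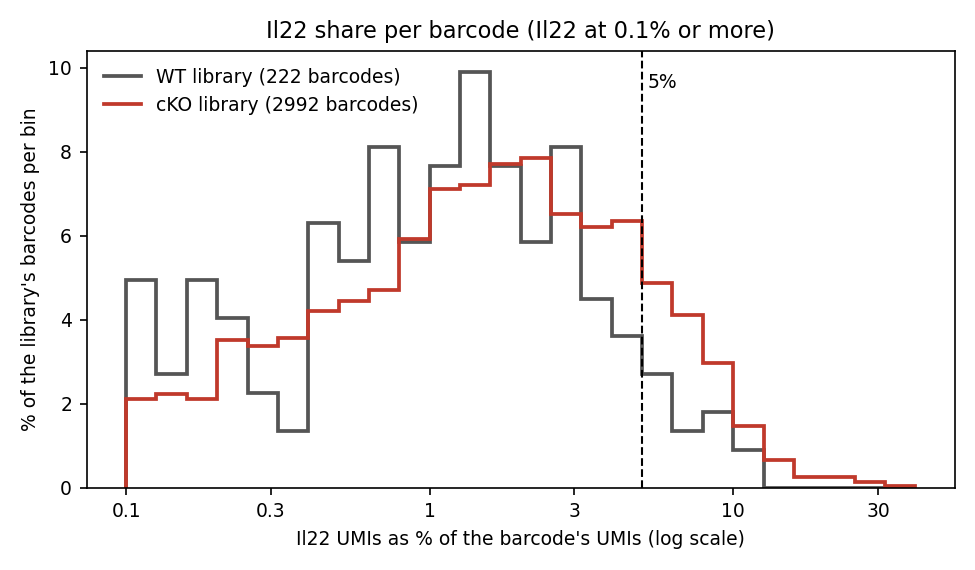
Share of a barcode's UMIs that are Il22 (x axis, log scale) for kept barcodes with Il22 at 0.1% or more that pass the Cd3e and Gata3 limits, as a percentage of each library's 222 WT or 2992 cKO barcodes per bin (y axis). The dashed line marks 5%, and 6.76% of the WT and 14.8% of the cKO barcodes lie to its right.

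Il22 has a near-identical neighbour, Iltifb, on the same chromosome. Il22 lies on chromosome 10 from 118204942 to 118210047 on the plus strand (GRCm38, GENCODE M21), and Iltifb from 118289629 to 118295038 on the minus strand. Their coding sequences are each 540 bases long and differ at 9 bases (98.3% identity). The last 90 coding bases of each are shown, as the coding stretch nearest to the 3′ end, from which 3′ tags come. The transcript beyond the coding end is not shown, so these bases do not say how far reads can tell the copies apart. Capitals mark the 3 positions at which the stretches differ.
Il22: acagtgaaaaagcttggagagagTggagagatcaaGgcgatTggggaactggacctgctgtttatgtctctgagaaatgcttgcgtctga
Iltifb: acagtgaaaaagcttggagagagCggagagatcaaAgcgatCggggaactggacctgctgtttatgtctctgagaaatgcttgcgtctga
In the cKO members 114532 UMIs were assigned to Il22 and 165 to Iltifb, and in the WT members 3280 and 2. The sources used here do not say how reads that fit both genes were counted, so the Iltifb values are uncertain.

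The first comparison asked what else differed in barcodes with very high Il22. In cKO, the members had more RNA of Gadd45g, Ctla4, Batf, the cytokines Il17f and Ifng, and Socs3, Bcl3 and Sbno2. They had less of Irf7, Tbx21, Nkg7, Tyrobp and Zfp36. Genes listed as type 1 lay on both sides, Ifng and Gzmb higher and Tbx21 and Tyrobp lower. A gene was counted as higher or lower by a size rule, which asks for 20 CPM in 1 or both groups and an interval of the ratio wholly beyond 1.5-fold. By this rule 77 of 5671 genes were higher at very high Il22 (1.36%) and 11 were lower (0.194%). The median log2 ratio over all genes at 5 CPM or more was -0.02.

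Gadd45g, which encodes a small stress and cytokine-induced protein that activates p38 and JNK signalling, was carried by more of the cKO members than any other of the 12 leading higher genes. It lies on chromosome 13 from 51846678 to 51848468. In cKO it was at 1068 CPM (1013 to 1125) at very high Il22 and at 210 CPM (200.3 to 219) at lower Il22, a log2 ratio of 2.35 (2.25 to 2.45). Of the 443 members, 211 had a Gadd45g UMI, with up to 43 UMIs in 1 barcode and a median of 0. At an equal depth of 1200 UMIs, 37.7% of members (32.9 to 42.7%) and 14.6% of lower Il22 barcodes (13.2 to 16.0%) had one. Both the share of barcodes and the summed level were higher. The other family members did not pass the rule: Gadd45b had a log2 ratio of 0.02 and Gadd45a of 0.25.

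Batf is the gene floxed in both groups. It lies on chromosome 12 from 85686669 to 85709087 and was at 279 CPM (252 to 309) in the cKO members and at 115 CPM (108 to 122) at lower Il22, a log2 ratio of 1.28 (1.11 to 1.45). In WT the levels were 350 CPM, from 16 UMIs, and 81.8 CPM (61.1 to 107). The members of the library labelled cKO therefore held Batf RNA, and the interval of their log2 ratio to the WT members ran from -1.04 to 0.50. A 3′ tag can lie outside the deleted exons, which the sources used here do not name, so this count does not check the deletion. Zbtb16 itself was low, with 31 UMIs in the 443 cKO members and 2 in the WT members. Among 18 tested genes of the BATF, AP-1 and IRF families, Batf was the 1 higher gene and Irf7 the 1 lower gene. Over all genes 1.36% were higher and 0.194% lower. Fosl2, at 969 and 940 CPM, and Junb, at 7352 and 7589 CPM, had log2 ratios of 0.04 and -0.05, and Irf4 had 5 UMIs in all cKO members.

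Ctla4, an inhibitory receptor that competes with CD28 for B7 ligands, was at 272 CPM (245 to 301) in the cKO members and at 81.7 CPM (75.9 to 87.8) at lower Il22, a log2 ratio of 1.74 (1.55 to 1.92). It was found in 127 of the 443 members. Of 13 checkpoint and costimulatory receptors tested, 4 were higher and none lower, against 1.36% of all genes higher and 0.194% lower. Beside Ctla4 these were Tnfrsf9 (4-1BB; 403 against 217 CPM), Il2ra (CD25; 746 against 420 CPM) and Pdcd1 (PD-1; 167 against 92.8 CPM). Icos, at 820 against 718 CPM, did not pass the rule.

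Receptors that control IL-22 were looked at next. Of 12 tested, Il1r1, the IL-1 receptor, was higher (362 against 209 CPM, log2 ratio 0.79). Ffar2, a receptor for short-chain fatty acids, was higher too (239 against 117 CPM, 1.03). Over all genes 1.36% were higher. Il23r was at 380 CPM against 265 CPM, a log2 ratio of 0.52 that did not pass the rule. At 1200 UMIs, 35.4% of members and 25.6% of lower Il22 barcodes had an Il23r UMI. None of 17 STAT and nuclear factors of IL-22 control passed the rule in cKO. Stat3 was at 846 against 606 CPM (log2 ratio 0.48) and Ahr, the aryl hydrocarbon receptor, at 106 against 65.3 CPM (0.70).

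Of 10 tested feedback genes of cytokine signalling, 3 were higher and none lower, against 1.36% of all genes higher. Socs3, which inhibits signalling to STAT3, was at 682 against 379 CPM (log2 ratio 0.85). Bcl3, an atypical IκB protein, was at 320 against 163 CPM (0.97), and Pim2, a survival kinase, at 437 against 261 CPM (0.74). The list's median log2 ratio was 0.42. Sbno2, a transcriptional coregulator downstream of STAT3, was among the 12 leading genes at 220 against 61.9 CPM (1.83). NF-κB subunits and feedback genes had no member past the rule among 15 tested, and NFAT and calcium response genes had none among 8.

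Of 16 tested secreted factors, 3 were higher, against 1.36% of all genes. Il17f, on chromosome 1 from 20777146 to 20790617, was at 208 CPM (184 to 234) in the cKO members and 52.4 CPM (47.8 to 57.4) at lower Il22, a log2 ratio of 1.99. Its UMIs came from 56 of 443 members, with up to 41 in 1 barcode. Ifng was at 54.4 CPM (42.6 to 68.5) against 9.18 CPM (7.31 to 11.4), in 21 members, of which 1 held 23 of the 72 UMIs. Lta, a lymphotoxin subunit, was at 75.5 against 36.5 CPM (1.05). Il17a was rare, with 49 UMIs in 8 members (37.0 against 23.0 CPM), and Csf2 was at 662 against 494 CPM (0.42). Neither passed the rule.

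The other 7 leading higher genes have varied roles. Plat, the tissue-type plasminogen activator, was at 80.1 against 11.7 CPM (log2 ratio 2.77) and Palld, an actin-bundling scaffold protein, at 185 against 31.3 CPM (2.56). Both were concentrated, in 30 and 56 of the 443 members. Elovl6, a fatty acid elongase, was at 102 against 23.0 CPM (2.15), and Serpine2, a secreted protease inhibitor, at 359 against 114 CPM (1.65). Ly6a, which encodes Sca-1, was at 671 against 233 CPM (1.52). Gzmb, granzyme B, was at 180 against 63.4 CPM, and Pqlc1 at 155 against 54.9 CPM. Gzmb came from 43 members, and within barcodes with an Ncr1 UMI and no Ccr6 UMI its log2 ratio was -0.02.

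None of 43 tested genes of ER entry, folding and secretion passed the rule. Of 44 measured, 40 had a ratio above 1, against 4234 of all 8927 genes measured, and the median log2 ratio was 0.19, against -0.02 over all genes. Hspa5, the ER chaperone BiP, was at 1496 against 992 CPM (0.59). The unfolded protein response list had a median of 0.23 and none of 10 past the rule. Glycolysis (13 tested) and nuclear-encoded respiratory genes (28 tested) had none past the rule and medians of -0.01 and -0.03. Eif5a, a translation factor, was the 1 of 20 translation genes past it, at 1629 against 946 CPM. Over all genes 1.55% passed it in either direction.

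Fewer genes were lower. Irf7, a transcription factor of the interferon response on chromosome 7, was at 220 CPM (195 to 247) in the cKO members and 535 CPM (520 to 550) at lower Il22, a log2 ratio of -1.28 (-1.46 to -1.11). At 1200 UMIs, 17.3% of members and 35.1% of lower Il22 barcodes had an Irf7 UMI. It was the 1 gene past the rule among 13 tested interferon response genes, whose median log2 ratio was 0.10. Tbx21, encoding the type 1 factor T-bet, was at 33.99 against 70.5 CPM (-1.05), the granule protein gene Nkg7 at 67.2 against 136 CPM (-1.02), and the adaptor gene Tyrobp at 9.06 against 38.7 CPM (-2.10). Among 16 tested type 1 and NCR-positive ILC3 genes, Tbx21 and Tyrobp were thus lower while Ifng and Gzmb were higher. Over all genes 1.36% were higher and 0.194% lower. Hspa1a, an inducible heat-shock chaperone, was at 11.3 against 47.2 CPM (-2.06), and Zfp36, an mRNA decay factor, at 182 against 362 CPM (-0.99). The remaining 5 were Atm (-1.77), Adcy7 (-1.14), Mmd (41.5 against 83.1 CPM), Adgre5 (-0.95) and Rbpms2 (-0.92). Several of these calls changed with the settings: Tbx21 kept its call in 5 of 12 alternatives, Mmd in 6 of 13, Adgre5 in 7 of 12, Nkg7 in 8 of 12, Adcy7 in 8 of 13, Tyrobp in 9 of 12 and Atm in 9 of 13.

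**Figure D2:**
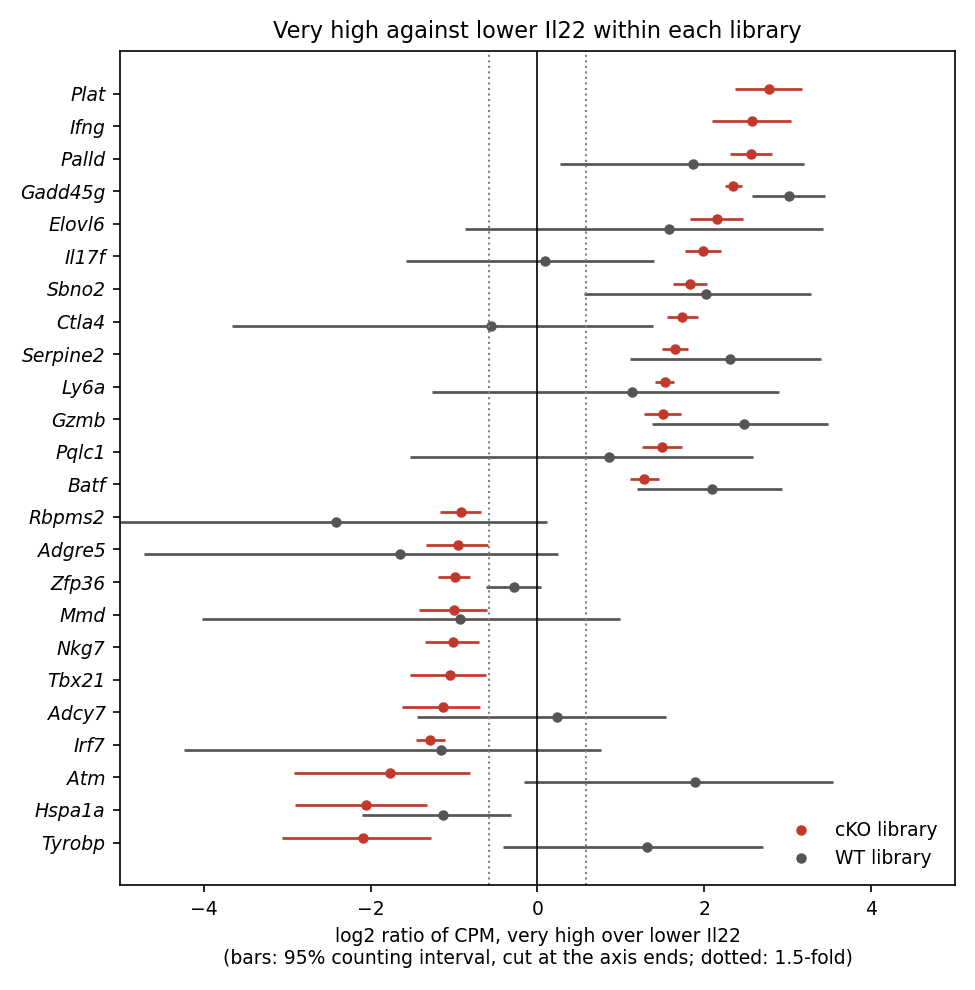
Log2 ratio of CPM at very high over lower Il22 (x axis) for the 12 leading higher genes, Batf and the 11 lower genes of the cKO library, in cKO (red) and WT (grey). Points are ratios and bars 95% counting intervals, drawn to the axis ends. Genes at 0 UMIs in the WT members have no grey point, and the WT intervals are wider throughout.

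The members were spread over the ILC3 subsets that Ncr1 (NKp46) and Ccr6 mark. In cKO, 38.6% of members had an Ncr1 UMI without Ccr6, against 48.0% at lower Il22. A Ccr6 UMI without Ncr1 was seen in 5.64% and 7.14%, and neither in 55.1% (50.3 to 59.8%) and 43.7% (41.8 to 45.7%). Barcodes with both Ncr1 and Tbx21 UMIs made up 4.51% of members and 11.0% of lower Il22 barcodes. Of the 15 WT members, 4 had Ccr6 only, 2 Ncr1 only, 1 both and 8 neither. Within the cKO barcodes with Ncr1 only, Gadd45g, Batf and Sbno2 had log2 ratios of 2.58, 1.49 and 2.05, so these differences were also present inside that subset. Within that subset Il17f had a log2 ratio of 0.66 and no longer passed the rule. Within the cKO barcodes with Ccr6 only, of which 25 were members, Batf and Ctla4 no longer passed it, while Gadd45g and Sbno2 did. Within the cKO library, 14 LTi-type genes were tested (LTi, the lymphoid tissue inducer cells among ILC3s). Of these, Cxcr5, Lta and Il17f were higher at very high than at lower Il22, against 1.36% of all genes. Cxcr5, a homing receptor, was at 76.3 against 28.4 CPM (1.42). None of 5 tested genes of MHC class II presentation passed the rule, and the list's median was -0.41.

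In the WT library the same contrast rests on low counts. By the size rule 43 of 7301 genes were higher in WT (0.589%) and 4 lower (0.0548%), 0.644% in either direction, and in 21 of the 43 a single barcode held at least 50% of the UMIs. Of the 77 genes higher in cKO, 70 were tested in WT, 52 had a ratio above 1 there and 11 passed the rule. Of all 5435 genes tested in both libraries, 44.8% had a WT ratio above 1. The 11 past the rule in both libraries were Gadd45g, Batf, Serpine2, Gzmb, Pim2, Lta, Cxcl3, Swap70, Ifitm2, Vegfa and the long noncoding RNA 9130015A21Rik. Several of them rest largely on 1 WT barcode, not the same one for each. The highest barcode held 11 of 12 Gzmb, 19 of 25 Lta, 9 of 16 Batf, 8 of 16 Pim2 and 5 of 10 Serpine2 UMIs. For Gadd45g it held 34 of 71 and for Vegfa 9 of 36. Of the 11 genes lower in cKO, 8 had a ratio below 1 in WT, against 55.2% of all genes tested in both, and none passed the rule. The median-of-ratios scaling shifts the WT log2 ratios by 0.16, so WT values are read against that offset.

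Single barcodes show how little the WT values rest on. Gadd45g was at 1553 CPM (1213 to 1959) in the WT members and 192 CPM (159 to 229) at lower Il22, a log2 ratio of 3.02. Its 71 UMIs came from 5 barcodes, with 34, 20, 15, 1 and 1 UMIs, and 10 barcodes had none. Batf had 16 UMIs in 5 barcodes, with 9 in the barcode that held 34 Gadd45g UMIs and 2, 2, 2 and 1 in the others. Ctla4 had 2 UMIs, 1 each in 2 barcodes, at 43.7 CPM (5.30 to 158) against 64.5 CPM (46.3 to 87.5) at lower Il22. The higher Ctla4 of cKO members was thus not seen in WT, where the interval of the log2 ratio ran from -3.65 to 1.38. Il17f was at 109 against 102 CPM (0.10), and Ifng, Plat and Tbx21 had no UMI in the WT members, where 3 UMIs would equal 65.6 CPM. All 19 UMIs of 9130015A21Rik, named here after its values were seen, came from 1 WT barcode. Stat3 passed the rule in WT, at 656 against 230 CPM (1.51).

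Levels changed stepwise with the Il22 share in cKO rather than only at the threshold. Over the bands of 0.1 to 1%, 1 to 2.5%, 2.5 to 5%, 5 to 10% and 10% or more, Gadd45g was at 168, 176, 339, 946 and 1751 CPM. Batf was at 96.8, 110.3, 156, 232 and 547 CPM, and Ctla4 at 68.8, 82.0, 105, 256 and 363 CPM. All 3 genes were higher in each band than in the one before it. Il17f was at 36.5, 43.0, 96.9, 142 and 572 CPM, and Serpine2 at 93.6, 115, 152, 248 and 980 CPM, so most of their rise lay in the 85 barcodes at 10% or more. Irf7 went the other way, at 576, 548, 437, 239 and 114 CPM. Of the 12 leading higher genes 9 were higher in each successive band, and of the 11 lower genes 6 were lower in each. Of all 5671 genes tested, 264 (4.66%) were higher and 330 (5.82%) lower in each, and since the leading genes were chosen on Il22 above against below 5%, their counts are a description. Ncr1 was at 240 CPM at 5 to 10% and 114 CPM at 10% or more, where Il23r was at 592 CPM. The barcodes at 10% or more were also shallower, with a median of 2337 UMIs other than Il22 and Iltifb against 3184 at 5 to 10%. The part of depth in these steps was not tested.

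**Figure D3:**
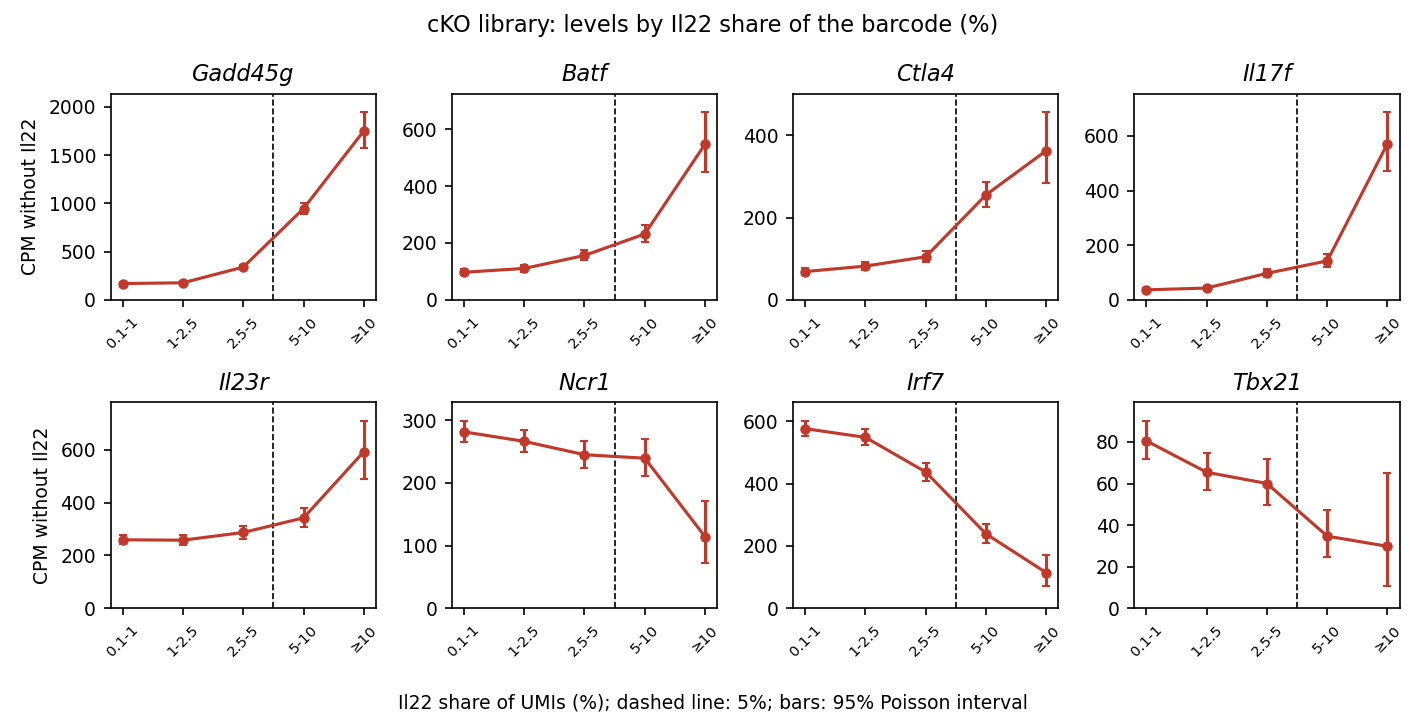
Levels of 8 genes in the cKO library (y axes, CPM without Il22 and Iltifb, each from 0) over 5 bands of the barcode's Il22 share (x axes, %), with 95% Poisson intervals. The dashed line is the 5% threshold. Gadd45g, Batf, Ctla4 and Il17f are higher in each successive band and Irf7, Tbx21 and Ncr1 lower, while Il23r is at 259 and 258 CPM in the first bands and higher in each after them.

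Members were not uniform. In cKO, at 1200 UMIs per barcode, 150 of 398 members had a Gadd45g UMI, and among these 40.7% (32.7 to 49.0%) also had Batf, against 15.7% (11.4 to 20.9%) of the 248 members without Gadd45g. Ctla4 was found in 32.7% (25.2 to 40.8%) and 12.5% (8.65 to 17.3%), Sbno2 in 34.7% and 12.1%, Elovl6 in 18% and 4.03%, and Bcl3 in 41.3% and 25.0%. At lower Il22 the same split gave 12.6% and 6.53% for Sbno2, 12.3% (9.07 to 16.1%) and 12.4% (11.1 to 13.9%) for Batf, and 9.22% and 7.34% for Ctla4. In the cKO members the intervals of the split did not overlap for Batf, Ctla4, Sbno2, Elovl6, Bcl3 and Ifng, nor, in the opposite direction, for Palld. Of these genes, only Sbno2 had separate intervals at lower Il22. Among other genes split this way, the members' intervals overlapped for Plat, Il17f, Serpine2, Ly6a, Gzmb, Pqlc1, Il23r, Ncr1, Stat3, Socs3 and Irf7, among others. The genes split included those already chosen as higher in the members. The split was not compared over all genes, so the share of all genes with separate intervals is not known. Gadd45g, Batf and Ctla4 were also higher in each successive band of the Il22 share, and the part of that share in the split was not tested. Gadd45g, Batf and Ctla4 were found together in 31 members (7.79%) and in 2 of 2456 lower Il22 barcodes (0.0814%). At least 1 of them was found in 54.3% of members and 30.5% of lower Il22 barcodes. These pairs were picked after their values were seen.

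Not every leading gene followed Gadd45g. Palld was found in 2.67% (0.731 to 6.69%) of members with Gadd45g and in 10.9% (7.30 to 15.4%) of those without it. Il17f was in 8.67% and 9.27%, and Serpine2 in 22.0% and 25.0%. Palld instead was found in 10 of the 36 members with an Il17f UMI (27.8%, 14.2 to 45.2%) and in 5.801% (3.63 to 8.73%) of those without. Of the members with Il17f, 3 of 36 had an Ncr1 UMI (8.33%), against 21.3% of the others. After thinning, 9 members kept an Ifng UMI, and all 9 had a Gadd45g UMI. Irf7, in 19.3% and 16.1%, did not separate members by Gadd45g.

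**Figure D4:**
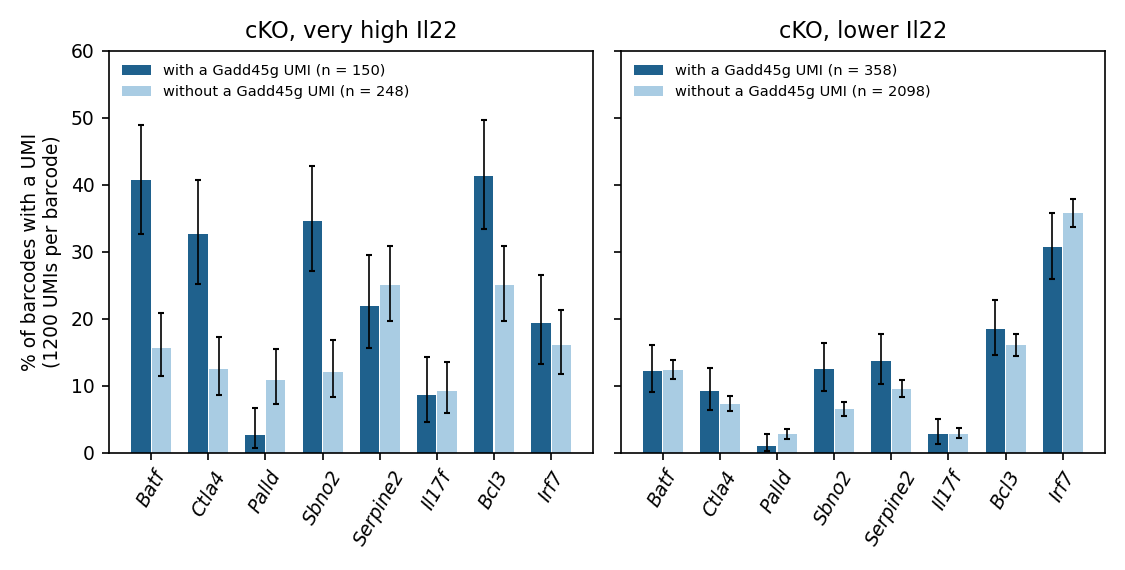
Share of cKO barcodes with a UMI of each gene after thinning to 1200 UMIs (y axes, %), split by whether the barcode had a Gadd45g UMI, for 398 very high Il22 barcodes (left) and 2456 lower Il22 barcodes (right). Bars are shares and whiskers exact 95% Clopper-Pearson intervals. Batf is at 40.7% and 15.7% on the left and at 12.3% and 12.4% on the right.

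Promoters of the leading genes were searched for short motifs on both strands, of which 2 are reported here, within 250 bases before each RefSeq transcript start (GRCm38.p6). The 2 motifs were TGANTCA, bound by AP-1 factors including BATF with JUN, and TTCNNNGAA, bound by STATs. Neither motif contains the other, and each was counted on its own. In 13 windows of the 9 leading higher genes that matched, the AP-1 motif was found in 2 and the STAT motif in 4. Over all 32851 windows the shares were 6.75% and 7.02%. In 11 windows of 9 matched lower genes they were found in 1 and 3, and the Il22 window held neither. One example of each is shown, with the match in capitals.
Gzmb: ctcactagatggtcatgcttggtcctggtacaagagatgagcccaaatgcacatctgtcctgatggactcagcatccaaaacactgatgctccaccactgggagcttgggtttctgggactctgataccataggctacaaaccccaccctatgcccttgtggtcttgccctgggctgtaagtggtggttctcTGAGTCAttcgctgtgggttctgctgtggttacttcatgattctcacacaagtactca
Sbno2: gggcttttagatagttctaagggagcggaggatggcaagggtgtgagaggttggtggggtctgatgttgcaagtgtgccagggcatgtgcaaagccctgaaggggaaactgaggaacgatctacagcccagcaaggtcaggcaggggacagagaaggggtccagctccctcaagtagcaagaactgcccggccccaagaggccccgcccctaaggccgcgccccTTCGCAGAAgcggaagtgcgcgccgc
The windows are chr14:56262335-56262584 and chr10:80102703-80102952, both on the minus strand and written 5′ to 3′. A match describes the letters and shows no binding.

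The last comparison set the members of the 2 genotypes side by side. By the size rule 37 of 7107 genes were higher in the cKO members than in the WT members (0.521%) and 122 were lower (1.72%). For 48 of the 122, a single WT barcode held at least 50% of the WT UMIs. At lower Il22, where WT has more barcodes, 186 of 6272 genes were higher (2.97%) and 345 lower (5.5%) in cKO, 8.47% in either direction. Of the members' calls, 28 higher and 55 lower genes passed the rule in the same direction at lower Il22, and none in opposite directions. The genotype difference in the members was thus in part also present at lower Il22, and whether it differs between very high and lower Il22 was not tested. The median-of-ratios scaling shifts these log2 ratios by -0.11.

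Among the higher genes, Areg, encoding the epidermal growth factor family ligand amphiregulin, had no UMI in the 15 WT members and 470 in cKO (355 CPM). Set against a floor of 3 UMIs in WT, which is a setting and no interval bound, this is 5.41-fold higher. At lower Il22 the Areg levels were 47.2 CPM in WT and 347 CPM in cKO. Sh2d2a, a T cell adaptor gene, likewise had none in WT and was at 198 CPM in cKO, 3.02-fold above the same floor. Rgs1, a regulator of chemokine receptor signalling, was at 744 CPM (34 UMIs in 10 barcodes) in WT and 2841 CPM in cKO, a log2 ratio of 1.93 (1.45 to 2.47). Serpinb1a, an intracellular protease inhibitor, was at 284 and 1551 CPM (2.45), and Lmo4, a LIM domain protein, at 175 and 829 CPM (2.24). Ly6a, Ctsw and Smox had 3 UMIs each in the WT members, at 65.6 CPM, against 671, 591 and 522 CPM in cKO. Their log2 ratios were 3.35 (1.802 to 5.63), 3.17 (1.62 to 5.45) and 2.99 (1.44 to 5.27). Ctla4 was at 43.7 CPM in WT and 272 CPM in cKO (2.64, 0.77 to 5.69), on 2 WT UMIs. At lower Il22 the log2 ratios of cKO over WT were 2.96 for Ly6a, 1.17 for Serpinb1a, 1.22 for Rgs1, 0.77 for Lmo4 and 0.34 for Ctla4.

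Among the lower genes, Odc1, the rate-limiting enzyme of polyamine synthesis, was at 6387 CPM in the WT members and 943 CPM in cKO, a log2 ratio of -2.76 (-2.94 to -2.57). It had UMIs in 14 of the 15 WT members and in 151 of the 443 cKO members, which makes it the most evenly carried of the 8 leading lower genes. Zfp36 was at 1794 and 182 CPM (-3.30), with 82 WT UMIs in 10 barcodes. Cd83, an activation-associated surface protein, was at 941 and 137 CPM (-2.78), with 43 WT UMIs in 8 barcodes. Lta was at 547 and 75.5 CPM (-2.86), with 19 of its 25 WT UMIs in 1 barcode. All 14 WT UMIs of the MHC class II gene H2-Eb1 lay in 1 barcode, which also held 23 of the 35 Cd74 UMIs. The WT member values of these genes thus rest wholly or largely on that barcode. Hspa1a had 12 WT UMIs in 4 barcodes (262 against 11.3 CPM, -4.53), D1Ertd622e 7 WT UMIs in 2 barcodes, and Sox4 had 3 WT UMIs in 1 barcode and none in cKO. Ccr6 was at 175 and 31.0 CPM (-2.498), on 8 WT UMIs. Of 15 LTi-type genes tested, 5 were lower and 2 higher in the cKO members, against 1.72% and 0.521% of all genes. At lower Il22, 9 of 15 were lower and 1 higher, against 5.5% and 2.97%. Barcodes with Ccr6 and no Ncr1 made up 26.7% of WT and 5.64% of cKO members, and 31.9% and 7.14% at lower Il22. The part of this make-up in the genotype values was not tested. At lower Il22 the log2 ratios were -2.72 for Odc1, -2.59 for Zfp36, -3.94 for Cd83, -1.57 for Lta and 0.26 for D1Ertd622e. H2-Eb1 was at 330.5 CPM in WT and 50.7 CPM in cKO at lower Il22, and Cd74 at 1262 and 284 CPM. Of 6 MHC class II genes tested there, 5 passed the rule as lower in cKO and none as higher. The lower MHC class II RNA of cKO was thus also seen outside the members.

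Genes of the immediate early and dissociation stress response moved with genotype in the same barcodes. The list summed to 40639 CPM in the WT members and 20776 CPM in the cKO members, and to 45230 and 21907 CPM at lower Il22. Of 26 tested, 11 were lower in the cKO members, among them Fos, Jun, Junb, Atf3 and Nr4a1, and 1 was higher. Over all genes tested between the members of the 2 libraries, 1.72% were lower in cKO and 0.521% higher. Jun was at 2931 and 573 CPM (-2.35) and Nr4a1 at 5424 and 1518 CPM (-1.84). The part of tissue handling in the genotype comparison was not tested, and with 1 library each it cannot be told apart from genotype. Gadd45g, at 1553 CPM in WT and 1068 CPM in cKO (-0.54), and Batf (-0.32) did not pass the rule between genotypes.

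**Figure D5:**
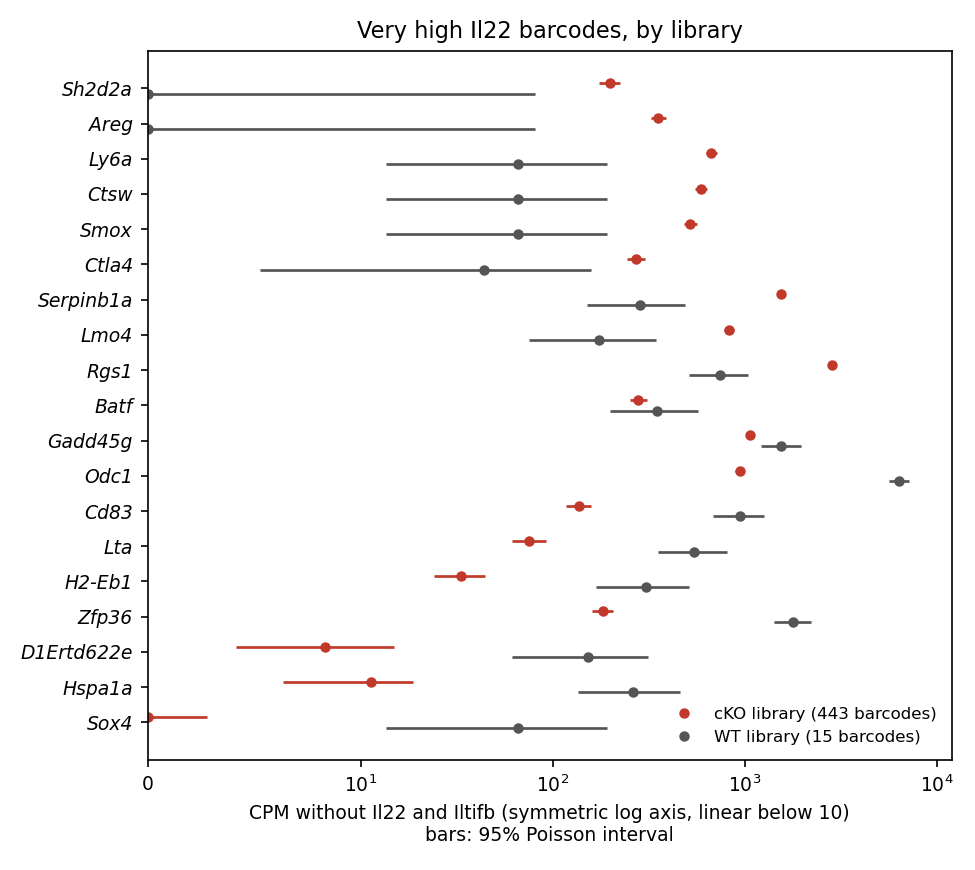
Levels of the 16 leading genotype genes, Batf, Gadd45g and Ctla4 in very high Il22 barcodes (x axis, CPM without Il22 and Iltifb, symmetric log scale), for 15 WT (grey) and 443 cKO barcodes (red). Bars are 95% Poisson intervals. Areg and Sh2d2a sit at 0 in WT and Sox4 at 0 in cKO, and the Batf intervals of the libraries overlap.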

How the data were processed

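The values the authors deposited are unnormalised UMI counts for each gene in each barcode. Cell Ranger and the build mm10 are named in the submitters' processing notes, and software version 3.0.0 in the file headers. UMIs were summed over the barcodes of a group and given per 1000000 (CPM) of totals without Il22 and Iltifb, 45720 to 9037538 UMIs a group. Python 3.11.15, scanpy 1.11.5 and scipy 1.17.1 were used. Barcodes needed 500 genes and under 10% mitochondrial UMIs. Doublets (Scrublet) were kept, and leaving them out is an alternative. Intervals are exact at 95%, and a gene passed the size rule at 20 CPM in 1 or both groups with an interval beyond 1.5-fold, which is no test. The rule was tried on simulated sums with independent Poisson counts. These do not hold the uneven spread of UMIs over barcodes, so they cannot check the rule for genes carried by few barcodes. Mitochondrial genes, Il22, Iltifb, Cd3e, Gata3, Xist and Tsix were left out of counts of genes. List medians take members at 5 CPM, with 0 UMIs set to 3.

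Named genes are the 12 (cKO contrast) or 8 (genotype) a direction with the interval's nearer bound most distant from a ratio of 1, leaving out ribosomal, mitochondrial, Gm-numbered and Rik genes. Added to them are 15 genes of the ILC3 and Batf background, and members of 33 lists, of whose 495 genes 492 were found. One of these genes is not reported here. The members and lists were chosen with earlier results of these data known. Positions are from GENCODE M21 and promoters from RefSeq (GRCm38.p6).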

Additional observations from a re-analysis of the deposited data

How the results depend on the processing

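No paired analysis was possible because each genotype has 1 library. The WT counts rest on 45720 UMIs from 15 barcodes. In the order cKO higher and lower, WT higher and lower, and cKO against WT within members higher and lower, the counts were 77, 11, 43, 4, 37 and 122. With 10% Il22 as the limit they were 183, 51, 83, 14, 8 and 79, and with an interval beyond 2-fold 24, 3, 20, 0, 11 and 67. The cKO lower count was 20 with Il22 in the totals, 6 against barcodes of 1% to under 5%, 17 without the Cd3e and Gata3 limits on the reference, 27 at 5 CPM, 7 after thinning and, chosen after seeing the data, 6 within Ccr6-only barcodes. The WT lower count was 11 with median-of-ratios scaling, 7 with Il22 in the totals and 8 against barcodes of 1% to under 5%. Within members, thinning gave 8 and 75, and asking for 10 UMIs seen or expected in WT, also chosen after seeing the data, gave 46 lower genes. Why these counts moved was not tested, beyond the fewer barcodes or genes each setting uses.

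The share of members in WT and cKO was 3.90% and 9.62% of all deposited barcodes, 4.76% and 15.01% at a limit of 3%, 0.272% and 1.48% at 10%, and 6.76% and 14.8% of barcodes with Il22 at 0.1% or more. In cKO it was 6.70% with 1000 genes and 6.88% under 5% mitochondrial UMIs. Direction changed for Ctsw (-1.11), Rgs1 (-0.19) and Odc1 (1.48) between genotypes at the 10% limit, where WT has 2 barcodes. It also changed in cKO for Gzmb within Ncr1-only (-0.022) and Ccr6-only barcodes (-0.27), and for Adcy7 (0.46) and Rbpms2 (0.43) within Ccr6-only barcodes. Of 305 values of called genes in the cKO contrast under all alternatives, 255 kept their call.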
